A study of Mus musculus with 16 samples.

Results

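The insulin, AKT and mTOR signalling genes described here are 10 genes of the deposited table of 13701, chosen by symbol: Insr, Irs1, Irs2, Akt1, Akt2, Foxo1, Foxo3, Mtor, Deptor and Eif4ebp1. All 10 were found and all 10 passed the filter on low counts in both tissues. RNA-seq libraries had been made from total RNA of whole frozen liver and whole frozen quadriceps of C57BL6/J males, 12 to 14 weeks of age, on day 7 after an adeno-associated virus was given. Each of the 4 groups holds 4 libraries. The groups are livers labelled Yap1S5A (AAV-DJ8-TGB-Yap1S5A), livers labelled GFP (AAV-DJ8-TGB-EGFP), quadriceps labelled Yap1S5A and quadriceps labelled GFP, so that every group had received a virus of the same DJ8 type. In Yap1S5A, serines that the Hippo kinases phosphorylate to inactivate the coactivator Yap1 are changed to alanine, and the series describes its expression as hepatic, although the promoter name is not spelled out in the labels. The treatment text of the samples speaks of partial hepatectomy and sham surgery, which conflicts with the titles, and the groups follow the titles.

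Insulin binds its receptor, a tyrosine kinase that phosphorylates the docking proteins IRS1 and IRS2. These recruit PI 3-kinase, whose lipid product brings the kinase AKT to the membrane. Active AKT phosphorylates FOXO transcription factors, which then leave the nucleus, and relieves the block on the kinase complex mTORC1, which phosphorylates the translation repressor 4E-BP1. In liver this route lowers glucose production and raises fat synthesis after a meal, and in muscle it drives glucose uptake and protein synthesis while it restrains FOXO-driven protein breakdown. Transcript counts measure none of these phosphorylation steps.

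Depth ran from 13817718 to 19215472 counts per library. Counts assigned to the Yap1 gene stood at 47.1 to 55.1 CPM in Yap1S5A-labelled livers, against 69.9 to 81.5 CPM in GFP-labelled livers. CPM are counts scaled to library size, here within each tissue by trimmed mean of M-values (TMM). The species and untranslated ends of the transgene are not stated in the labels, so this count does not check the vector. Hepatocyte markers summed to between 136589 and 165240 CPM in Yap1S5A-labelled livers and 135280 and 155608 CPM in GFP-labelled livers, and of these 9 markers 6 were called lower and 0 higher with Yap1S5A (median log2 fold change -0.80). Skeletal muscle markers summed to between 158593 and 200717 CPM in Yap1S5A-labelled quadriceps and 216009 and 257479 CPM in GFP-labelled quadriceps, so both tissues carried their defining transcripts. Of these 9 muscle markers, 2 were called lower and 0 higher in quadriceps with Yap1S5A (median log2 fold change -0.19). Hepatocyte markers summed in quadriceps to 18.6 to 140.7 CPM with Yap1S5A and 12.9 to 31.9 CPM with GFP, with 1 of 5 tested called higher. The source of this hepatocyte signal was not tested. In bulk tissue, fewer cells of a type and less RNA per cell cannot be told apart.

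In Yap1S5A-labelled livers, Akt1 and Irs2 were higher and Akt2, Deptor and Eif4ebp1 lower than in GFP-labelled livers. In Yap1S5A-labelled quadriceps, Akt1 and Eif4ebp1 were higher and Deptor lower than in GFP-labelled quadriceps. Akt1 therefore rose and Deptor fell in both tissues, Akt2 was called in liver and not in quadriceps, and Eif4ebp1 was called in opposite directions. Changes were called by edgeR's quasi-likelihood test at a Benjamini-Hochberg adjusted p under 0.05 over all genes tested in a tissue. Liver fold changes also moved with gene length, as described below. With that trend taken out, the liver calls of Eif4ebp1 and Irs2 were lost (edgeR adjusted p = 0.781 and 0.0606). The quadriceps call of Eif4ebp1 held in 11 of 16 alternative fits. Of the 10 genes, 2 were called higher and 3 lower in liver, where 63.6% of the 12818 genes tested were called, 33.3% higher and 30.3% lower. In quadriceps 2 were called higher and 1 lower, where 9.03% of the 12121 genes tested were called, 4.21% higher and 4.82% lower. The members' share in liver lay below the liver background, and their share in quadriceps lay above the quadriceps background, with 3 of 10 genes.

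**Figure D1:**
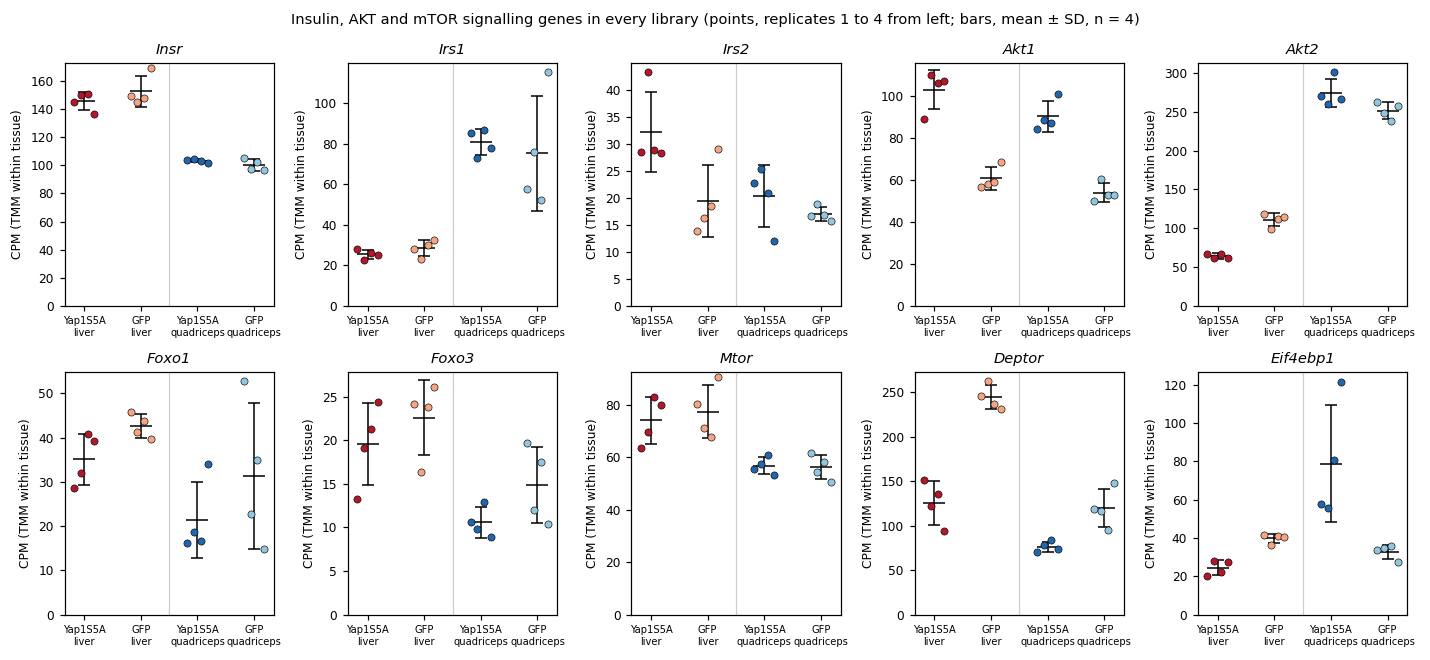
CPM (vertical axis of each panel, starting at 0) of the 10 genes in the 16 libraries, with Yap1S5A-labelled livers, GFP-labelled livers, Yap1S5A-labelled quadriceps and GFP-labelled quadriceps from left to right. Points are libraries and bars are mean ± SD (n = 4). The Akt1 points of both Yap1S5A groups lie above those of their GFP group, the Deptor points lie below them, and Foxo1 in GFP-labelled quadriceps spreads from 14.8 to 52.8 CPM.

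The receptor gene itself was not called in either tissue. Insr (chromosome 8, 3150922 to 3279617, minus strand, build mm10, 21 exon segments) had 145.1, 149.9, 151.1 and 137.0 CPM in Yap1S5A-labelled livers, against 149.4, 145.1, 147.8 and 169.3 CPM in GFP-labelled livers. In Yap1S5A-labelled quadriceps it had 103.6, 104.6, 103.4 and 101.9 CPM, against 105.6, 97.1, 102.4 and 96.9 CPM in GFP-labelled quadriceps. The libraries of the vectors overlapped in both tissues. The log2 fold change was -0.07 ± 0.12 (SE) in liver and 0.04 ± 0.08 in quadriceps, with edgeR adjusted p of 0.637 and 0.805.

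Of the docking protein genes, Irs2 was called in liver and Irs1 was not. Irs1 (chromosome 1, 82233105 to 82291439, minus strand, 2 exon segments) had 27.9, 22.6, 26 and 25 CPM in Yap1S5A-labelled livers, against 28, 23.1, 30.2 and 32.4 CPM in GFP-labelled livers. Its libraries overlapped, and its log2 fold change of -0.16 ± 0.14 was not called (edgeR adjusted p = 0.313). Irs2 (chromosome 8, 10986964 to 11008430, minus strand, 2 exon segments) had 28.5, 43.4, 28.8 and 28.3 CPM in Yap1S5A-labelled livers, against 13.9, 16.3, 18.4 and 29 CPM in GFP-labelled livers. GFP replicate 4 reached the level of 3 of the Yap1S5A-labelled livers, so the groups overlapped. Irs2 rose by 0.73 ± 0.22 on the log2 scale (1.66-fold, edgeR adjusted p = 0.00879). Without Yap1S5A replicate 2 the log2 fold change was 0.51 and the call was lost (edgeR adjusted p = 0.0647).

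In quadriceps neither docking gene was called. Irs1 had 85.4, 73.0, 86.8 and 77.9 CPM in Yap1S5A-labelled quadriceps, against 57.5, 75.9, 52.3 and 115.3 CPM in GFP-labelled quadriceps. The GFP libraries enclosed the Yap1S5A ones on both sides, and the log2 fold change was 0.10 ± 0.23 (edgeR adjusted p = 0.842). Irs2 had 22.8, 25.3, 20.9 and 12.1 CPM in Yap1S5A-labelled quadriceps, against 16.6, 18.8, 16.8 and 15.7 CPM in GFP-labelled quadriceps. Yap1S5A replicate 4 lay below every GFP library and the other 3 lay above every GFP library. The log2 fold change was 0.25 ± 0.19 (edgeR adjusted p = 0.468), and it was 0.43 and called without Yap1S5A replicate 4 (edgeR adjusted p = 0.0306).

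Insulin is known to lower Irs2 in liver through FOXO1 at an insulin response sequence near its start, so the 250 bases before the RefSeq start of both docking genes are shown (build GRCm38.p6, the same assembly as mm10). The Irs1 window is chr1:82291440-82291689 and the Irs2 window is chr8:11008930-11009179, both on the minus strand and printed 5′ to 3′. Capitals mark the letters TGTTTTG (insulin response sequence core), CACGTG (E-box) and GGAATG (TEAD core), found on either strand.
Irs1: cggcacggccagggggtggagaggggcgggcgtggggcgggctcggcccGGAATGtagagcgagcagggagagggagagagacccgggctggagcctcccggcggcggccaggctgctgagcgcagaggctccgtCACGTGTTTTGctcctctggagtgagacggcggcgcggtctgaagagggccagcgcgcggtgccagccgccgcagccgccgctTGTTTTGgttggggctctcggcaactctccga
Irs2: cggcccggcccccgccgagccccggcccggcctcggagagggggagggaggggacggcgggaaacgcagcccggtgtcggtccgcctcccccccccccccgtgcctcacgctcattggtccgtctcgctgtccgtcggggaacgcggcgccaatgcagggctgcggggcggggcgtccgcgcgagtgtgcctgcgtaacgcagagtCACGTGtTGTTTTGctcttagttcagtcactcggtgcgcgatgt
In the Irs1 window TGTTTTG stood at -111 to -105 and at -32 to -26, counted from the RefSeq start, CACGTG at -115 to -110 and GGAATG at -201 to -196, and the first TGTTTTG overlaps CACGTG. In the Irs2 window CACGTG stood at -44 to -39 and TGTTTTG at -37 to -31, and the RefSeq start lies 499 bases from the start of the deposited gene model. Over all 32536 RefSeq promoter windows of this length, TGTTTTG was found in 5.60%, CACGTG in 6.04% and GGAATG in 12.6%, on either strand. A match of letters is a description and not a binding site.

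The AKT kinase genes moved in opposite directions in liver. Akt1 (chromosome 12, 112653821 to 112674276, minus strand, 14 exon segments), the broadly expressed AKT gene tied to growth and survival, had 88.8, 109.6, 106.2 and 106.9 CPM in Yap1S5A-labelled livers, against 56.7, 58.0, 59.1 and 68.4 CPM in GFP-labelled livers. Akt2 (chromosome 7, 27591560 to 27639453, plus strand, 15 exon segments), the AKT gene best known for insulin control of glucose in liver and muscle, had 67.1, 61.3, 66.7 and 61.0 CPM in Yap1S5A-labelled livers, against 117.8, 98.6, 111.3 and 114.8 CPM in GFP-labelled livers. No library of one vector entered the range of the other for either gene, a separation that 57.4% of the liver genes tested showed. Akt1 rose by 0.76 ± 0.13 on the log2 scale (1.70-fold, edgeR adjusted p = 9.98e-05). Akt2 fell by 0.79 ± 0.12 on the log2 scale (edgeR adjusted p = 4.59e-05).

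In quadriceps Akt1 rose and Akt2 was not called. Akt1 had 84.3, 88.3, 87.2 and 100.8 CPM in Yap1S5A-labelled quadriceps, against 49.9, 60.1, 52.7 and 52.5 CPM in GFP-labelled quadriceps. The 4 Yap1S5A-labelled quadriceps lay above every GFP-labelled one, which 15.5% of the quadriceps genes tested also showed in one direction or the other. The log2 fold change of Akt1 was 0.74 ± 0.09 (1.68-fold, edgeR adjusted p = 0.000431), close to the 0.76 found in liver. Akt2 had 270.7, 260.2, 300.9 and 267.1 CPM in Yap1S5A-labelled quadriceps, against 262.4, 248.5, 238.0 and 257.4 CPM in GFP-labelled quadriceps. Its groups overlapped narrowly, and its log2 fold change was 0.13 ± 0.08 (edgeR adjusted p = 0.4).

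The difference between tissues was tested as the interaction of vector and tissue over all 16 libraries, where 48% of the 13669 genes tested were called, 25.5% in the higher direction and 22.5% in the lower. For Akt2 the liver effect minus the quadriceps effect was -0.92 ± 0.15 on the log2 scale (edgeR adjusted p = 4.05e-05). For Akt1 it was 0.02 ± 0.16 (edgeR adjusted p = 0.957), and it was -0.09 with the scaling factors of DESeq2 and -0.25 with the length trend taken out. Akt1 was 1 of 242 genes called higher in both tissues, 2.15% of the 11274 genes tested in both.

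The 250 bases before a RefSeq start of each AKT gene are shown because these genes moved apart in liver. RefSeq's promoter entries hold 2 starts for Akt1 and 4 for Akt2, and the window of a single start is shown for each. The Akt1 window is chr12:112674277-112674526 on the minus strand and the Akt2 window is chr7:27591302-27591551 on the plus strand, both in GRCm38.p6 and 5′ to 3′.
Akt1: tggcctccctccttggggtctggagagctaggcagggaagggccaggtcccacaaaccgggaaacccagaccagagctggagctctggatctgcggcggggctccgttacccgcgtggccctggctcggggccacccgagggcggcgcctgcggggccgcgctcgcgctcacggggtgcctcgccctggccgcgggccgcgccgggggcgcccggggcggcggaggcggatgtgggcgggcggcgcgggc
Akt2: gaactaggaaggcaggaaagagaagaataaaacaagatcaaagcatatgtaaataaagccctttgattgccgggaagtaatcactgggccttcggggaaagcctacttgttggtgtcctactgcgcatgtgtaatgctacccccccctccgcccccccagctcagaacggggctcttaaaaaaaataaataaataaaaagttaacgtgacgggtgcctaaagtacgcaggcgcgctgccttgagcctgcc
The Akt1 window was richer in G and C, at 78.4%, than the Akt2 window, at 48.8%. Neither window held any of the 3 motifs marked in the docking gene windows, nor the FOXO core GTAAACA, which was found in 3.17% of all windows. Neither therefore carries capitals. The absence of these letters from a window of this length says nothing about the factors.

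Within each library the ratio of counts per exonic base compares paralogues without any scaling between libraries. Such a ratio does not remove the trend of liver fold changes with gene length described below. In liver Akt2 over Akt1 averaged -0.95 ± 0.20 on the log2 scale in Yap1S5A-labelled livers (a ratio of 0.518) and 0.60 ± 0.14 in GFP-labelled livers (a ratio of 1.52; SD, n = 4 each). Akt1 was thus the more abundant AKT transcript per base in all 4 Yap1S5A-labelled livers and Akt2 in all 4 GFP-labelled livers. In quadriceps the log2 ratio averaged 1.34 ± 0.16 with Yap1S5A (a ratio of 2.53) and 1.96 ± 0.15 with GFP (a ratio of 3.89). Akt2 stayed the more abundant one in every quadriceps library. The differences of -1.55 in liver and -0.62 in quadriceps each had an exact permutation p of 0.0286, two-sided, the smallest that 4 libraries against 4 allow, and 0.0571 after adjustment over the 6 ratios tested.

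Irs2 over Irs1 averaged 1.52 ± 0.42 in Yap1S5A-labelled livers and 0.59 ± 0.36 in GFP-labelled livers on the same log2 scale. The difference of 0.92 had an exact permutation p of 0.0286 and an adjusted p of 0.0571. In quadriceps Irs1 was the more abundant docking gene in every library, with log2 ratios of -0.85 ± 0.49 with Yap1S5A and -0.89 ± 0.55 with GFP, and the difference of 0.03 had an exact permutation p of 0.914. For Foxo3 over Foxo1 the differences were 0.07 in liver and 0.01 in quadriceps, with exact permutation p of 0.714 and 1. None of the 6 ratios passed the threshold after adjustment. Irs1 has 9163 exonic bases and Irs2 4012, and Foxo1 has 5552 and Foxo3 2889. With the length trend taken out, the liver log2 fold changes were 0.50 for Irs2 and -0.65 for Irs1. They were then -0.27 for Foxo3 and -0.65 for Foxo1.

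**Figure D2:**
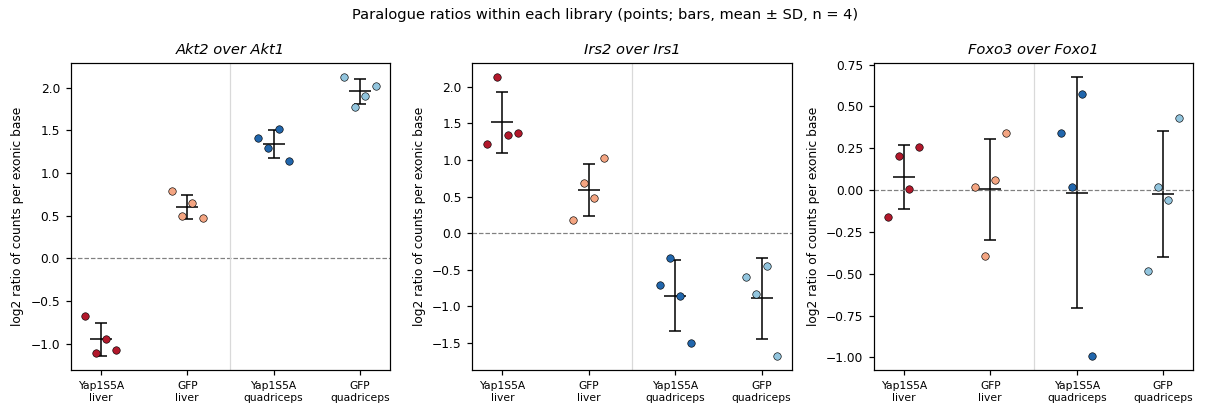
Log2 ratio of counts per exonic base (vertical axis) of Akt2 over Akt1, Irs2 over Irs1 and Foxo3 over Foxo1 in the 16 libraries, in the same order of groups. Points are libraries, bars are mean ± SD (n = 4), and the dashed line marks equal abundance. The Akt2 over Akt1 points lie below the line in Yap1S5A-labelled livers and above it in the other 3 groups.

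The FOXO genes were not called in either tissue. Foxo1 (chromosome 3, 52268337 to 52350109, plus strand, 3 exon segments), which drives glucose production genes in the fasted liver, had 28.6, 31.9, 40.8 and 39.2 CPM in Yap1S5A-labelled livers, against 45.8, 41.2, 43.9 and 39.7 CPM in GFP-labelled livers. Yap1S5A replicates 1, 2 and 4 lay below every GFP library and replicate 3 entered their range. The log2 fold change was -0.28 ± 0.14 (edgeR adjusted p = 0.0905), and the gene was called lower without Yap1S5A replicate 3 (log2 fold change -0.41, edgeR adjusted p = 0.0348) or without Yap1S5A replicate 4 (-0.37, edgeR adjusted p = 0.0485). Foxo3 (chromosome 10, 42185786 to 42276742, minus strand, 4 exon segments), a FOXO factor known for atrophy genes in muscle, had 13.3, 19.1, 21.3 and 24.4 CPM in Yap1S5A-labelled livers, against 24.2, 16.3, 23.8 and 26.1 CPM in GFP-labelled livers. Its groups overlapped over most of their range (log2 fold change -0.21 ± 0.19, edgeR adjusted p = 0.36).

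In quadriceps the FOXO genes varied most among the GFP libraries. Foxo1 had 16.2, 18.6, 16.7 and 34.1 CPM in Yap1S5A-labelled quadriceps, against 52.8, 22.8, 35 and 14.8 CPM in GFP-labelled quadriceps. Foxo3 had 10.7, 9.8, 13 and 8.9 CPM in Yap1S5A-labelled quadriceps, against 19.7, 12.0, 17.4 and 10.4 CPM in GFP-labelled quadriceps. GFP replicates 1 and 3 were the highest of the 8 libraries for both genes, and GFP replicate 4 lay within the Yap1S5A range for Foxo3 and below it for Foxo1. The log2 fold changes were -0.55 ± 0.46 for Foxo1 (edgeR adjusted p = 0.542) and -0.49 ± 0.20 for Foxo3 (edgeR adjusted p = 0.151).

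Mtor, the kinase of both mTOR complexes, was not called in either tissue, while Deptor, which binds and inhibits that kinase, was lower in both. Mtor (chromosome 4, 148448582 to 148557685, plus strand, 58 exon segments) had 63.6, 69.6, 83 and 79.9 CPM in Yap1S5A-labelled livers, against 80.2, 71.2, 67.6 and 90.4 CPM in GFP-labelled livers. In Yap1S5A-labelled quadriceps it had 55.4, 57.5, 60.7 and 53.3 CPM, against 61.4, 54.4, 58.1 and 50.7 CPM in GFP-labelled quadriceps. The groups overlapped in both tissues, with log2 fold changes of -0.06 ± 0.14 in liver and 0.01 ± 0.09 in quadriceps (edgeR adjusted p = 0.704 and 0.942).

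Deptor (chromosome 15, 55112317 to 55259273, plus strand, 10 exon segments) had 151.2, 121.9, 136.0 and 93.7 CPM in Yap1S5A-labelled livers, against 245.7, 262.8, 236.8 and 231.6 CPM in GFP-labelled livers. The groups lay far apart, and replicate 4 was the lowest of each. Deptor fell by 0.96 ± 0.15 on the log2 scale, to 0.515 of the GFP level (edgeR adjusted p = 7.98e-05), the largest change among the 10 genes in liver. In Yap1S5A-labelled quadriceps it had 70.4, 78.1, 83.5 and 73.8 CPM, against 118.8, 116.8, 95.4 and 148.5 CPM in GFP-labelled quadriceps. These groups did not overlap either, and Deptor fell by 0.65 ± 0.12 on the log2 scale (edgeR adjusted p = 0.00443). It was 1 of 148 genes called lower in both tissues, 1.31% of those tested in both. The liver effect minus the quadriceps effect was -0.32 ± 0.20 (edgeR adjusted p = 0.201), and -0.57 and called without Yap1S5A liver replicate 1 (edgeR adjusted p = 0.0226). With the length trend taken out it was -0.93 and called (edgeR adjusted p = 0.00096).

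Eif4ebp1 (chromosome 8, 27260327 to 27275656, plus strand, 3 exon segments), which encodes the translation repressor 4E-BP1 and is also a known FOXO target, had 20.1, 28.1, 22.3 and 27.7 CPM in Yap1S5A-labelled livers, against 41.5, 36.2, 41.4 and 40.3 CPM in GFP-labelled livers. Every Yap1S5A-labelled liver lay below every GFP-labelled one, and the gene fell by 0.70 ± 0.14 on the log2 scale (edgeR adjusted p = 0.000506). With the length trend taken out, Eif4ebp1 in liver was at -0.05 and not called (edgeR adjusted p = 0.781). In Yap1S5A-labelled quadriceps it had 57.6, 55.6, 80.7 and 121.5 CPM, against 33.6, 34.8, 35.9 and 27.7 CPM in GFP-labelled quadriceps. Every Yap1S5A-labelled quadriceps lay above every GFP-labelled one, and Yap1S5A replicate 4 was the highest of all. The log2 fold change was 1.26 ± 0.25 (2.39-fold, edgeR adjusted p = 0.021). This call was lost without Yap1S5A replicate 3 (edgeR adjusted p = 0.0555) and without GFP replicate 1, 2 or 4 (0.0702, 0.0535 and 0.0743), at log2 fold changes from 1.18 to 1.28. The liver effect minus the quadriceps effect was -1.95 ± 0.27 (edgeR adjusted p = 8.59e-06), and the gene was 1 of 123, or 1.09% of those tested in both tissues, called lower in liver and higher in quadriceps. The interactions of the other 6 genes were not called, at values from -0.28 for Irs1 to 0.47 for Irs2. Without GFP-labelled quadriceps replicate 4 that of Irs1 was called (edgeR adjusted p = 0.035), and without GFP-labelled liver replicate 4 that of Irs2 was called (edgeR adjusted p = 0.0419). Those of Insr (-0.74, edgeR adjusted p = 0.000144), Irs1 (-0.88, 0.0143) and Mtor (-0.70, 0.00131) were called with the length trend taken out. An interaction that was not called does not show equal effects in the tissues: on simulated counts, this test missed more of the smaller changes than the tests within a tissue did.

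Fold changes in liver moved with gene length: their median was -0.67 in the eighth of genes with the shortest exonic length (at most 1333 bases) and 0.39 in the eighth with the longest. In quadriceps these medians were 0.05 and -0.02. Eif4ebp1, at 981 exonic bases, is the shortest of the 10 genes, and Insr, at 9355 bases, the longest. With the length trend taken out, the log2 fold change of Eif4ebp1 in liver was -0.05 (edgeR adjusted p = 0.781) and that of Irs2 was 0.50 (edgeR adjusted p = 0.0606), so both calls were lost. Insr (-0.55, edgeR adjusted p = 0.00108), Irs1 (-0.65, 0.000576), Foxo1 (-0.65, 0.00137) and Mtor (-0.54, 0.00418) were then called lower. Akt1 (0.74), Akt2 (-0.92) and Deptor (-1.45) were called in the same direction with and without the trend. The source of the length trend was not tested, and in quadriceps no call among the 10 genes changed when it was taken out.

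**Figure D3:**
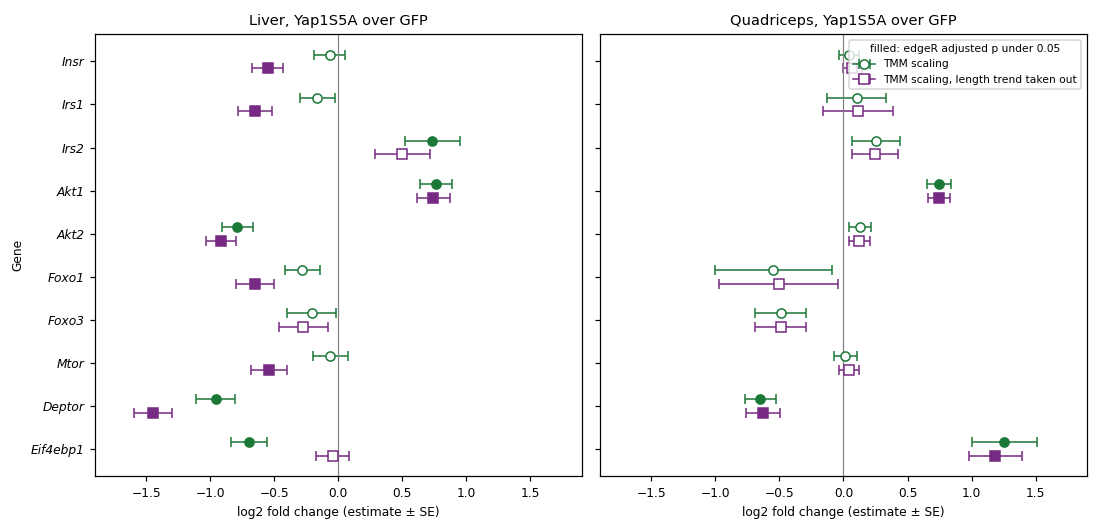
Log2 fold change of Yap1S5A over GFP (horizontal axis, estimate ± SE) of the 10 genes in liver (left) and quadriceps (right). Circles are values with TMM scaling and squares are values with the length trend also taken out. Filled symbols have an edgeR adjusted p under 0.05. Eif4ebp1 in liver moves to -0.05 when the trend is taken out, while Akt1, Akt2 and Deptor keep filled symbols in liver.

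Levels of different genes were compared per kilobase of exon. In Yap1S5A-labelled livers Akt1 was highest, at 38.2 CPM per kilobase, and Irs1 lowest, at 2.77. In GFP-labelled livers Eif4ebp1 was highest, at 40.6, and Irs1 again lowest, at 3.10. Akt1 stood at the top in Yap1S5A-labelled livers, against rank 4 in GFP-labelled livers, where Akt2 (34.1), Deptor (28.2) and Akt1 (22.5) did not overlap with each other. In quadriceps Akt2 was highest with either vector, at 84.8 CPM per kilobase with Yap1S5A and 77.6 with GFP, and it overlapped with Eif4ebp1 (80.4) in the Yap1S5A libraries. The lowest of the 10 in quadriceps were Foxo3 (3.66) with Yap1S5A and Irs2 (4.24) with GFP, and both overlapped with their next neighbours, Foxo1 and Foxo3.

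Between tissues, the GFP libraries were compared on a common scaling of all 16 libraries, where 78.5% of genes were called, 39.2% higher in liver and 39.3% lower, and 72% had libraries that did not overlap. Deptor was higher in GFP-labelled liver than in GFP-labelled quadriceps by 0.76 ± 0.14 on the log2 scale (edgeR adjusted p = 5.44e-05) and Insr by 0.34 ± 0.10 (edgeR adjusted p = 0.00373). Insr was not called with upper-quartile scaling (0.16, edgeR adjusted p = 0.138). Irs1 was lower in GFP-labelled liver, with a log2 fold change of -1.67 ± 0.19 (edgeR adjusted p = 8.01e-08), and so was Akt2, with -1.45 ± 0.11 (edgeR adjusted p = 8.4e-11). On this common scaling Akt2 averaged 58.0 ± 2.5 CPM in Yap1S5A-labelled livers, 101 ± 8.9 in GFP-labelled livers, 301 ± 17 in Yap1S5A-labelled quadriceps and 277 ± 12 in GFP-labelled quadriceps (SD, n = 4 each). The order of Akt2 levels thus placed quadriceps above liver with either vector. Eif4ebp1 averaged 22.3 ± 3.8 CPM in Yap1S5A-labelled livers and 36.5 ± 2.7 in GFP-labelled livers, against 86.0 ± 32 in Yap1S5A-labelled quadriceps and 36.3 ± 4.1 in GFP-labelled quadriceps. The GFP groups of the tissues therefore did not differ beyond their spread for Eif4ebp1.

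Reads from opposite strands cannot be told apart here, since the strand setting of the counting is not given in the sources used here. Exons of Irs1 share 2822 bases (30.8% of its exonic length) with Gm9747 on the opposite strand in GENCODE vM21, Foxo1 shares 674 bases (12.1%) with Gm20402, Irs2 shares 162 bases (4.04%) with 9530052E02Rik and Deptor shares 303 bases (3.49%) with Gm9920. The other 6 genes share no exonic base with another gene in that annotation.

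Other genes of the route were taken from lists by function and are described by counts, beside a median log2 fold change over all genes of 0.03 in liver and 0.00 in quadriceps. Over all genes tested, 33.3% were called higher and 30.3% lower in liver, and 4.21% higher and 4.82% lower in quadriceps, and a list's count is to be read against these shares. Among receptors and adaptors, 8 of 17 tested were higher and 2 lower in Yap1S5A-labelled livers (median 0.16), and 0 of 18 were called in quadriceps (3 had an unadjusted p under 0.05, and 0 were called by DESeq2). Gab2, a docking protein of many receptors, rose by 3.03 ± 0.19 on the log2 scale in liver (edgeR adjusted p = 7.13e-09), and Gab1 by 0.89 ± 0.14 (edgeR adjusted p = 8.79e-05). The type 1 IGF receptor gene Igf1r had 6.0, 6.9, 5.9 and 8.2 CPM in Yap1S5A-labelled livers, against 3.0, 3.8, 4.3 and 2.1 CPM in GFP-labelled livers (log2 fold change 1.02 ± 0.24, edgeR adjusted p = 0.00181). With the length trend taken out it was 0.53 and not called (edgeR adjusted p = 0.0739). Sos1, which activates Ras downstream of the receptor, fell by 0.85 ± 0.13 (edgeR adjusted p = 4.51e-05).

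Of 11 genes listed as inhibitors of the receptor step, 2 were higher and 0 lower in liver, and edgeR called 0 higher and 2 lower in quadriceps, where DESeq2 called 1 higher and 3 lower and 1 was higher at an unadjusted p under 0.05. The 2 called lower by edgeR were Grb10 and Ptpn11 (-0.34 ± 0.09, edgeR adjusted p = 0.0278). Ptpn11 is not established as an inhibitor of this step, and its call held in 3 of 8 fits with a library left out. Grb10, an adaptor that restrains insulin signalling, had 15.4, 17.3, 15.9 and 18.2 CPM in Yap1S5A-labelled livers, against 3.6, 4.4, 4.4 and 2.8 CPM in GFP-labelled livers. In Yap1S5A-labelled quadriceps Grb10 had 34.9, 33.8, 38.1 and 35.6 CPM, against 56.5, 46.6, 53.4 and 56.5 CPM in GFP-labelled quadriceps. The groups were apart in both tissues and in opposite directions, with log2 fold changes of 2.13 ± 0.18 in liver (edgeR adjusted p = 1.3e-07) and -0.58 ± 0.09 in quadriceps (edgeR adjusted p = 0.00155). Ptpn1, the phosphatase that acts on the insulin receptor, rose by 1.38 ± 0.16 in liver (edgeR adjusted p = 4.48e-06).

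Of the PI 3-kinase and lipid phosphatase genes, 8 of 17 were called higher and 0 lower in liver (median 0.34), and 5 of 17 were called higher and 0 lower in quadriceps (median 0.07), beside 33.3% and 4.21% of all genes called higher. The quadriceps count was 2 without Yap1S5A replicate 1, 3 without Yap1S5A replicate 3 or GFP replicate 2, and 3 in the fit of all 16 libraries. DESeq2 also called 0 lower in either tissue, while 0 in liver and 2 in quadriceps were lower at an unadjusted p under 0.05. With the length trend taken out, 5 were called lower in liver. The highest fold changes belonged to Pik3cg (4.6 ± 0.27), Inpp5d (4.38 ± 0.19), Pik3r5 (3.65 ± 0.25) and Pik3cd (3.49 ± 0.23) in liver, genes best known from leukocytes, with edgeR adjusted p from 5.08e-10 to 2.09e-08. Pik3cd had 38.5 to 63.7 CPM in Yap1S5A-labelled livers, against 3.1 to 6.4 CPM in GFP-labelled livers, and it also rose in quadriceps, by 0.54 ± 0.12 (edgeR adjusted p = 0.0109), a call lost in the fit of all 16 libraries (0.53, edgeR adjusted p = 0.0898). Pik3r1, a regulatory subunit of most cells, was not called in either tissue, with log2 fold changes of 0.18 in liver and 0.07 in quadriceps. Macrophage markers moved in the same libraries: 10 of 10 were higher in liver, where they summed to between 2263 and 2421 CPM with Yap1S5A and 131 and 238 CPM with GFP. In quadriceps 7 of 8 tested were higher, with sums of 165 to 285 CPM with Yap1S5A and 58.4 to 109 CPM with GFP, and Clec4f, the Kupffer cell marker, was at 0 counts in all 4 GFP-labelled quadriceps. In liver, the summed bile duct markers stood at 1370 to 1794 CPM with Yap1S5A and 33.5 to 61.6 CPM with GFP, with 2 of 5 called higher. Proliferation markers summed to 200 to 229 CPM with Yap1S5A and 20.3 to 26.6 CPM with GFP, with 5 of 5 called higher. Endothelial markers summed to 296 to 340 CPM with Yap1S5A and 132 to 146 CPM with GFP (6 of 7 higher), stellate and mesenchymal markers to 874 to 1283 CPM with Yap1S5A and 188 to 367 CPM with GFP (4 of 8 higher, 1 lower), and lymphocyte markers to 81.3 to 97.2 CPM with Yap1S5A and 6.99 to 13.03 CPM with GFP (4 of 6 higher). The median log2 fold change in liver was 1.18 for bile duct and 1.21 for lymphocyte markers, a smaller rise than that of their sums. It was 1.05 for endothelial, 0.97 for stellate and mesenchymal, 3.85 for macrophage and 6.60 for proliferation markers. Ptprc, on the lymphocyte list, is not limited to lymphocytes. The part of these cells in any change given here, Akt1 included, was not tested.

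Among AKT and its regulators and substrates, 6 of 19 were higher and 5 lower in liver, and edgeR called 2 higher and 0 lower in quadriceps. There 1 gene was lower at an unadjusted p under 0.05, and 1 was called lower by DESeq2 and also with the length trend taken out. Tbc1d1, a Rab GTPase-activating substrate of AKT, rose in liver by 2.26 ± 0.19 on the log2 scale (edgeR adjusted p = 1.08e-07). Trib1, a pseudokinase, fell by 0.88 ± 0.13 (edgeR adjusted p = 4.51e-05) and Gsk3a, a kinase that AKT inhibits, by 0.70 ± 0.14 (edgeR adjusted p = 0.000466). Of the FOXO factors, Foxo4 alone was called in liver, lower by 0.75 ± 0.15 on the log2 scale (edgeR adjusted p = 0.000552). In quadriceps 0 of 4 were called (1 had an unadjusted p under 0.05, and 0 were called by DESeq2).

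FOXO targets were called in both directions. Of 25 tested in liver 4 were higher and 9 lower (median -0.07), and of 24 tested in quadriceps 4 were higher and 1 lower (median 0.02), beside 33.3% of all genes higher and 30.3% lower in liver. Without Yap1S5A liver replicate 2 the count called higher in liver was 1. In quadriceps 2 were called higher without GFP replicate 1 or 4, and the count called lower ranged from 0 to 2 over the left-out libraries, at 0 without Yap1S5A replicate 1 or 4 or GFP replicate 4 and 2 without GFP replicate 2. In liver Bnip3, a mitophagy receptor, fell by 1.92 ± 0.15, Sod2, the mitochondrial superoxide dismutase, by 1.32 ± 0.13, and Pck1, a rate-setting enzyme of gluconeogenesis, by 1.32 ± 0.25 (edgeR adjusted p = 6.46e-08, 5.96e-07 and 0.000402). Called higher there were Irs2 (0.73 ± 0.22), Ppargc1a (0.66 ± 0.20), Sesn3 (0.57 ± 0.23) and Sesn1 (0.46 ± 0.14). Their edgeR adjusted p were 0.00879, 0.0102, 0.0474 and 0.0121. Igfbp1 and G6pc, further targets of FOXO1 in liver, were not called (log2 fold changes of 0.59 and -0.41, edgeR adjusted p = 0.361 and 0.445). In quadriceps Bnip3 was higher, by 0.55 ± 0.12 (edgeR adjusted p = 0.0113). Pdk4, the kinase that inhibits pyruvate dehydrogenase, had 88.6, 198.0, 75.3 and 73.6 CPM in Yap1S5A-labelled quadriceps, against 458.1, 369.4, 466.9 and 623.2 CPM in GFP-labelled quadriceps. Its groups were well apart, with a log2 fold change of -2.14 ± 0.39 (edgeR adjusted p = 0.021), but the call did not hold when Yap1S5A replicate 1, Yap1S5A replicate 4 or GFP replicate 4 was left out (highest adjusted p of edgeR 0.0702).

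Around mTOR itself, 3 of 12 genes of its complexes were higher and 4 lower in liver, and 1 of 11 was higher and 2 lower in quadriceps. Akt1s1, which encodes the mTORC1 inhibitor PRAS40, fell in liver beside Deptor, by 1.11 ± 0.19 on the log2 scale (edgeR adjusted p = 0.000167). Telo2, an assembly factor of mTOR-type kinases, rose in quadriceps by 0.62 ± 0.13 (edgeR adjusted p = 0.0106). Among upstream controls of mTORC1, 8 of 39 were higher and 18 lower in liver, and edgeR called 0 of 40 higher and 2 lower in quadriceps. There 1 was higher at an unadjusted p under 0.05 and 0 by DESeq2. The 2 called lower were 4 with the length trend taken out, 0 in the fit of all 16 libraries, and 0 without Yap1S5A replicate 1 or 4 or GFP replicate 1 or 4. Rragd, a Rag GTPase of the lysosomal platform, rose by 3.28 ± 0.24 in liver (edgeR adjusted p = 2.93e-08), and Lamtor4, a subunit of the Ragulator that anchors the Rags, fell by 1.41 ± 0.23 (edgeR adjusted p = 0.000109). Over the alternatives the log2 fold change of Lamtor4 ranged from -1.57 to -0.66, and it stayed called.

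Of 16 genes listed as outputs of mTORC1, which include Eif4ebp1, 0 were higher and 11 lower in liver (median -0.58), and 3 were higher and 0 lower in quadriceps (median 0.06), where 1 was lower at an unadjusted p under 0.05 and 0 by DESeq2. The list was drawn up by protein function and includes genes of proteins that mTORC1 restrains, such as Tfeb. Transcript counts of these genes do not measure mTORC1 activity. Eif4ebp3, a paralogue of Eif4ebp1, had 14.4, 15.1, 12.2 and 10.7 CPM in Yap1S5A-labelled livers, against 39.6, 36.5, 63.3 and 70.5 CPM in GFP-labelled livers (log2 fold change -2.0 ± 0.21, edgeR adjusted p = 1.78e-06). Eif4ebp2, the other paralogue, fell by 0.54 ± 0.14 (edgeR adjusted p = 0.00289). In quadriceps Eif4b, a helicase cofactor of translation initiation, had 331.1, 324.3, 362.3 and 315.3 CPM with Yap1S5A, against 243.8, 209.6, 209.9 and 211.8 CPM with GFP (log2 fold change 0.61 ± 0.09, edgeR adjusted p = 0.00117). Tfeb, a lysosomal transcription factor that mTORC1 restrains, rose there by 0.54 ± 0.10 (edgeR adjusted p = 0.00443), a call lost in the fit of all 16 libraries (0.53, edgeR adjusted p = 0.163).

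Of 9 genes listed as insulin-induced in liver, 7 were called lower and 0 higher in Yap1S5A-labelled livers (median -1.70). The list includes Insig2, for which induction by insulin in liver is not established. Insig2 had 35.3 to 79.1 CPM in Yap1S5A-labelled livers, against 97.0 to 170.2 CPM in GFP-labelled livers. Fasn, the fatty acid synthase, had 192.6, 175.2, 309.1 and 153.1 CPM in Yap1S5A-labelled livers, against 2440.7, 1479.3, 2134.7 and 947.8 CPM in GFP-labelled livers. The groups were apart, with a log2 fold change of -3.08 ± 0.31 (edgeR adjusted p = 2.16e-06). Srebf1, the lipogenic factor that insulin raises, was not called, at -0.32 ± 0.24 on the log2 scale (edgeR adjusted p = 0.257). In quadriceps 0 of 8 were called by edgeR (median 0.39), while 1 had an unadjusted p under 0.05 and 1 was called by DESeq2, both in the higher direction. With the length trend taken out 1 was called higher there too.

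With the length trend taken out, more genes of several lists were called lower in liver: 6 receptors and adaptors, 2 inhibitors of the receptor step, 8 genes of AKT and its regulators and substrates, 2 FOXO factors and 7 genes of the mTOR complexes. Called higher were then 5 receptors and adaptors and 2 FOXO targets. Fewer were then called lower among upstream controls of mTORC1 (15) and FOXO targets (8). The lists of mTORC1 outputs (10 lower) and insulin-induced genes (8 lower) still had 0 genes called higher. For both of these lists 0 genes were higher at an unadjusted p under 0.05, and 0 by DESeq2. Of the genes that the naming rule picked, 4 in liver (Sh2b1, Sesn1, Sesn3 and Telo2) and 8 in quadriceps (Ptpn11, Inpp4a, Tbc1d4, Cited2, Pdk4, Rictor, Gatsl2 and Rragd) lost their call when at least 1 library was left out. With the length trend taken out, 6 of the 45 named in liver lost it (Igf1r, Phlpp2, Ppargc1a, Sesn1, Telo2 and Lamtor5). In the fit of all 16 libraries, 8 of the 14 named in quadriceps lost it (Ptpn11, Pik3cd, Inpp4a, Tbc1d4, Cited2, Gatsl2, Rragd and Tfeb). With the replicate block, Trib3 lost it in liver, and Ptpn11, Tbc1d4, Pdk4 and Rragd lost it in quadriceps. Within a tissue this block joins same-numbered libraries of both vectors, which were not paired.

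**Figure D4:**
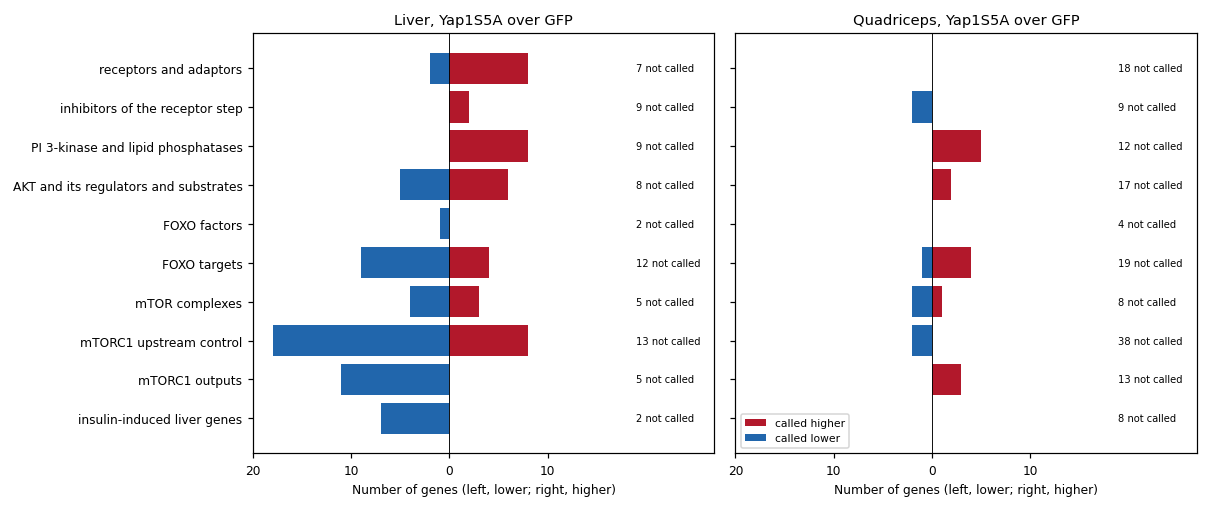
Number of genes of each pathway list called higher (right of 0) and lower (left of 0) in Yap1S5A over GFP, in liver (left panel) and quadriceps (right panel), with the number not called written at the right. In liver the lists of mTORC1 outputs and insulin-induced genes have 0 genes on the higher side, with 11 and 7 on the lower side. In quadriceps most genes of every list were not called.

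For the 4 members with the smallest liver p, the genes with the most similar pattern over the 16 libraries were searched among 11246 genes by Pearson's r of log2 CPM, with the mean of each tissue removed. Akt2 was most like Oat (r = 0.976) and Sord (r = 0.973), Deptor was most like Pgk1 (r = 0.966) and C2cd2 (r = 0.954), Akt1 was most like Hmha1 (r = 0.945) and Unc93b1 (r = 0.943), and Eif4ebp1 was most like Map1lc3b (r = 0.934) and Hgs (r = 0.931). These r describe 16 libraries that share their vector groups, and a gene with similar group means scores high for that reason. Map1lc3b, for example, was lower in liver by 0.35 ± 0.12 and higher in quadriceps by 0.47 ± 0.11 (edgeR adjusted p = 0.0217 and 0.0175), the same pair of directions as Eif4ebp1.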

How the data were processed

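Per the submitters' processing notes, the authors used FastQC 0.11.5, STAR 2.4.2a and featureCounts from Subread 1.5.0 on build mm10, and per the labels the kit was the Ion Total RNA-Seq kit v2. The deposited table holds the authors' raw counts per gene, and scaled values (a signal) that served only to recover the authors' library sizes as an alternative. Counts were fitted with edgeR 4.0.16 (filterByExpr, TMM, robust quasi-likelihood fit, threshold 0.05) in R 4.3.3, each tissue alone and all 16 libraries for the interaction and the tissue contrast, and the fits were tested on simulated data. CPM are counts over TMM-scaled library sizes. Alternatives were other scalings, no filter, DESeq2 1.42.0, a loess length trend (span 0.3), a replicate block and leaving out each library. Within a tissue the block joined same-numbered libraries of both vectors. Over all 16 libraries it joined same-numbered libraries of a vector across tissues. The members, pathway lists and tests were chosen with earlier results of these data known. From the lists, genes called with a mean of at least 5 CPM were named by size of change, up to 4 a direction in liver and 3 in quadriceps; fewer are named here (some genes of the lists are not reported), and Pik3r1, Igfbp1, G6pc, Eif4ebp2 and Srebf1 were added after their values were seen. The accompanying sheet repeats a vector's IDs in liver and in quadriceps; these were read as mice, so replicate numbers pair the tissues. Deviations of same-numbered libraries correlated at -0.07 to 0.09 across tissues. No label calls the replicates separate mice; if they were not, p-values would cover technical spread alone. Replicate pairs differed beyond sampling noise (chi-square over degrees of freedom 12.2 to 63.7). Promoters are RefSeq's, with an entry for 7 of the 10 genes. Reads carry no molecular identifiers.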

Additional observations from a re-analysis of the deposited data

Results flagged for a closer look

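Irs2 in Yap1S5A-labelled liver replicate 2 stood at 43.4 CPM, far above the 28.3 to 28.8 CPM of the other 3 libraries. Akt1 in Yap1S5A-labelled liver replicate 1 stood at 88.8 CPM, below the 106.2 to 109.6 CPM of the others. Foxo1 in Yap1S5A-labelled quadriceps replicate 4 stood at 34.1 CPM, above the 16.2 to 18.6 CPM of the others. These are 3 of 40 groups of 4 libraries, and chance alone flags about 1 in 20 groups. The vector effect differed between tissues for Akt2, by -0.92 on the log2 scale (edgeR adjusted p = 4.05e-05), and for Eif4ebp1, by -1.95 (edgeR adjusted p = 8.59e-06), by the interaction of vector and tissue. Both are liver minus quadriceps.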

How the results depend on the processing

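Of the members called, Akt1, Akt2 and Deptor in liver, and Akt1 and Deptor in quadriceps, kept direction and call under every alternative run. The largest shifts came from taking out the length trend. It raised the members called in the interaction to 6, against 2 without it, with a median over all genes of -0.22. Added were Insr (-0.74), Irs1 (-0.88), Mtor (-0.70) and Deptor (-0.93), with edgeR adjusted p from 0.000144 to 0.0143. Values not called there included -0.25 for Akt1, -0.31 for Foxo1 and -0.015 for Foxo3. In the tissue contrast, taking out the trend gave 0.034 for Irs2 and -0.17 for Eif4ebp1, which were not called. Mtor was then called higher in liver, at 0.70 (edgeR adjusted p = 1.12e-05). Upper-quartile scaling moved the median of all genes to 0.11 in liver and -0.16 between tissues, and gave 0.012 for Insr and 0.018 for Mtor in liver and -0.0046 for Foxo1 and -0.18 for Eif4ebp1 between tissues. The Akt1 interaction was -0.090 with RLE factors and -0.089 with DESeq2. Leaving out 1 library at a time turned the sign of values that were not called: the range was -0.17 to 0.017 for Mtor in liver, -0.036 to 0.38 for Irs1 and -0.034 to 0.056 for Mtor in quadriceps. In the interaction it was -0.18 to 0.091 for Akt1, -0.083 to 0.58 for Foxo1 and -0.22 to 0.012 for Mtor, and between tissues -0.35 to 0.059 for Irs2, -0.044 to 0.57 for Foxo1 and -0.056 to 0.063 for Eif4ebp1. Among the 10 genes the replicate block changed the call of Eif4ebp1 in quadriceps (1.18, edgeR adjusted p = 0.0844) and no other call. Between vectors the same numbers were not paired, with deviations that correlated at -0.26 to 0.14, and not every library was closest to its own number.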

Other observations

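In GFP-labelled quadriceps, the replicates with high Foxo1 and Foxo3 also stood apart for other genes of the lists, chosen here after their values were seen. Cdkn1a, a cell cycle inhibitor, had 48.4 and 37.7 CPM in replicates 1 and 3 and 20.2 and 20.01 CPM in replicates 2 and 4. Ddit4, a stress-induced inhibitor of mTORC1, had 16.1 and 22.8 CPM in replicates 1 and 3 and 5.3 and 5.5 CPM in replicates 2 and 4. Irs1 had 57.5 and 52.3 CPM in replicates 1 and 3 and 75.9 and 115.3 CPM in replicates 2 and 4.

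In GFP-labelled livers the libraries of the same numbers were also apart for Lpin1, a phosphatidate phosphatase regulated by mTORC1. It had 783.8 and 883.6 CPM in replicates 1 and 3 and 240.0 and 233.5 CPM in replicates 2 and 4, all above the 39.6 to 76.9 CPM of Yap1S5A-labelled livers. Srebf1 had 490.1 and 581.8 CPM in GFP replicates 1 and 3 and 264.0 and 250.4 CPM in replicates 2 and 4, which enclosed the 283.3 to 361.4 CPM of Yap1S5A-labelled livers. Igfbp1 was highest in Yap1S5A-labelled liver replicate 2, at 318.9 CPM, the library that was also highest for Irs2. These values were not tested.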
